A study of Homo sapiens with 10 samples.

Results

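The 10 secreted factors described here, cytokines and innate immune proteins of inflammation, were followed in 786-O, a kidney cancer line of clear-cell type that lacks functional VHL, after hairpins against ZHX2 or p65. They were listed by name: IL6, LIF, IL11, IL1A, IL1B, IL32, CSF1, CSF2, PTX3 and TNFAIP6. The list was chosen with earlier results of these data known, so shares set beside those of all genes are descriptive only. A named probe set was found for 9 of the 10, out of 22426 named genes; CSF2 was not analysed here. Each of the 9 was read from 1 probe set. The ZHX2 table held 6 Affymetrix arrays, 2 each of cells infected with a scrambled hairpin (Scr), ZHX2 hairpin 44 and ZHX2 hairpin 45. The p65 table held 4 arrays, 2 each of cells with a control shRNA (Ctrl) and a p65 shRNA. All groups shared the lentiviral infection and selection with puromycin at 2 ug/ml. The labels do not say how Ctrl relates to Scr, nor whether arrays of a group came from separate infections or cultures, so p-values measure the spread between these arrays, which may be technical. One cell line carried every group, and 2 hairpins stood for ZHX2. The sample titles name no hairpin for p65, and its 2 arrays were taken as replicates of 1 shRNA.

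NF-kappaB is a family of dimeric transcription factors held in the cytoplasm by inhibitory proteins and released by signals such as TNF or interleukin-1. p65, encoded by RELA, is its main activating subunit, and IL6, IL1A, IL1B, CSF2, PTX3 and TNFAIP6 are textbook target genes. ZHX2 is a zinc-finger and homeobox protein that is degraded through VHL, and VHL-deficient renal carcinoma cells accumulate it. The cytokines act on other cells and on the tumour cells themselves, through receptors that signal by JAK and STAT3 (IL6, LIF, IL11), by MyD88 (IL1A, IL1B) or by receptor tyrosine kinase (CSF1). PTX3 is a soluble pattern-recognition protein, and TNFAIP6 (TSG-6) transfers heavy chains onto hyaluronan; both are made by stimulated stromal and epithelial cells.

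Values are the deposited RMA signals on the log2 scale, on which a difference of 1 is a doubling, and the tables were never compared in level. The targeted genes matched the labels. ZHX2 fell by 1.14 under hairpin 44 (limma, adjusted p = 0.00528, a call lost without either array of that hairpin) and by 1.53 under hairpin 45 (adjusted p = 0.000926). RELA lay at 7.64 and 7.67 on the Ctrl arrays and at 5.04 and 5.28 on the p65 shRNA arrays. Of 8 measured markers of renal epithelium and carcinoma, 8 lay above the median gene in the ZHX2 table and 7 in the p65 table. Of 10 macrophage markers, 2 lay above it in the ZHX2 table (TYROBP and SPI1) and 0 in the p65 table.

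The starts of 4 genes are shown because they hold a kappaB match or, for TNFAIP6, because its signal changed most. Each is the 250 bases before a RefSeq start site in GRCh38.p14, on the plus strand, read 5′ to 3′ toward the gene, with motif matches in capitals. They lie at chr7:22726950-22727199 (IL6), chr3:157436600-157436849 (PTX3), chr16:3065153-3065402 (IL32, the first of its start sites) and chr2:151357342-151357591 (TNFAIP6).
IL6: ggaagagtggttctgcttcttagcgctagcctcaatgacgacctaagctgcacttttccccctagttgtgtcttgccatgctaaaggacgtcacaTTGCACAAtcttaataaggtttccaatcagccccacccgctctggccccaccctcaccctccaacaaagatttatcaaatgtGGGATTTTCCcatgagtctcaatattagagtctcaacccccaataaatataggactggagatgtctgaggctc
PTX3: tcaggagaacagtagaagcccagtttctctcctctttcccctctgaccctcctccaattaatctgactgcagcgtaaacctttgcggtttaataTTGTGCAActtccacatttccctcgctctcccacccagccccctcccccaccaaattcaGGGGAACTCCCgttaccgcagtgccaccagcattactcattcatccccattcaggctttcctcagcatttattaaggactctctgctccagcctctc
IL32: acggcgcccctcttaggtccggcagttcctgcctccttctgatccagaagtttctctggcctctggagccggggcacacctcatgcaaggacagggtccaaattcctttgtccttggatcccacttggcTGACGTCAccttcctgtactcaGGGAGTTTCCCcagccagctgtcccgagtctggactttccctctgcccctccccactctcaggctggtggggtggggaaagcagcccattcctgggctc
TNFAIP6: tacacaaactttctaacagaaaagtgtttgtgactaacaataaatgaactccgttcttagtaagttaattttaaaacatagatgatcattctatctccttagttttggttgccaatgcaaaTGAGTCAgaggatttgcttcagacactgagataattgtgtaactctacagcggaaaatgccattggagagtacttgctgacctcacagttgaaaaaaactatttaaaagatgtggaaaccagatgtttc

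The letters searched, on both strands, were the kappaB consensus, TGANTCA for AP-1, TTGCNNAA for C/EBP and TGACGTCA for a cyclic AMP response element. Windows were given for 8 of the 10 genes. The kappaB consensus stood in the windows of IL6, PTX3 and IL32, and in 9.96% of all 35116 windows of the table. In IL6 the match GGGATTTTCC ran from -73 to -64, counted back from the start site, with a C/EBP match from -155 to -148. In PTX3, overlapping kappaB matches ran from -97 to -87 and a C/EBP match on the other strand from -156 to -149. In IL32, overlapping kappaB matches on both strands ran from -99 to -89 and a cyclic AMP response element from -121 to -114. TNFAIP6 held an AP-1 match, TGAGTCA, from -129 to -123. AP-1 letters also stood in the windows of IL11 and IL1A (6.57% of all windows) and C/EBP letters in that of IL1B (9.05%). The cyclic AMP element is in 1.65% of all windows. A match describes letters and not a bound site.

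**Figure D1:**
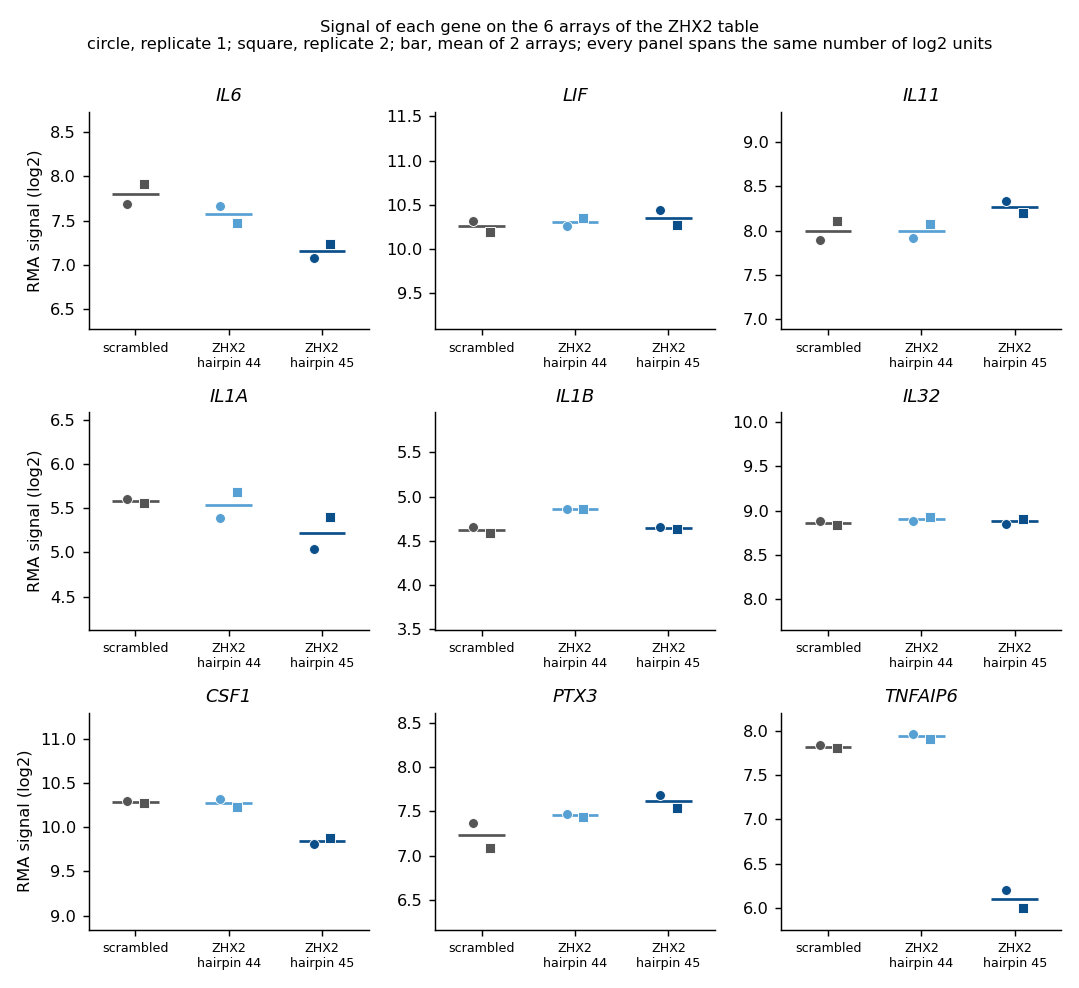
RMA signal (log2, vertical axis) of the 9 measured genes on the 6 arrays of the ZHX2 table, with a point for each array and a bar for the mean of 2 arrays. TNFAIP6 lies at 6.20 and 6.0 with hairpin 45 and between 7.81 and 7.96 on the other 4 arrays.

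Among the secreted factors, TNFAIP6 and IL6 were lower in the mean of both hairpins against ZHX2, and CSF1 was lower in the comparison of hairpin 45 with Scr. With hairpin 44 alone TNFAIP6 was 0.11 higher and IL6 differed by -0.23, and neither passed. The other 6 factors did not pass these tests. For the mean of both hairpins against Scr, 2 of the 9 passed, both lower, while 18.3% of all genes passed in either direction and 6.41% were lower. The share of the factors that passed, 22.2%, is near that of all genes. Their median change was 0.03 and the median over all genes was -0.0042. With hairpin 44 alone 0 of 9 passed (7.65% of all genes; limma), and at an unadjusted p under 0.05 it was 1 of 9, IL1B, against 24.5% of all genes. With hairpin 45 alone 3 of 9 passed, all lower, against 20.1% of all genes in either direction and 7.11% lower. Allowing the variance to follow signal intensity (the trend fit), limma called 4 of 9 over both hairpins, 0 with hairpin 44, 4 with hairpin 45 and 2 between the hairpins, against 26.2%, 17.6%, 27.9% and 6.55% of all genes. In bulk RNA, fewer cells making a transcript and less of it per cell cannot be told apart.

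IL6 signals the acute phase through IL6R and the shared chain IL6ST. Its signal was 7.68 and 7.92 with Scr, 7.67 and 7.47 with hairpin 44, and 7.08 and 7.23 with hairpin 45. All hairpin arrays lay below both Scr arrays, and those of hairpin 45 lay lowest. Separation from Scr, in either direction, is common with 2 arrays a group. Over both hairpins it held for 2 of the 9 factors and 38.3% of all genes. With hairpin 45 it held for 6 of the 9 and 58.9% of all genes. IL6 fell by 0.44 over both hairpins (SE 0.104, 95% interval -0.69 to -0.18; limma, adjusted p = 0.0369) and by 0.64 with hairpin 45 (SE 0.12, adjusted p = 0.0166). With hairpin 44 the difference was -0.23 (interval -0.53 to 0.06, adjusted p = 0.307). With a term for replicate number added to the fit, IL6 did not pass over both hairpins (limma, adjusted p = 0.06). The call over both hairpins was kept only without Scr replicate 1, and leaving out any of the other 5 arrays ended it, with changes from -0.55 to -0.32 over all 6. The call for hairpin 45 was lost without Scr replicate 2 (adjusted p = 0.0687) and without either hairpin 45 array (limma, 0.0939 and 0.0628).

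LIF, which keeps mouse embryonic stem cells undifferentiated in culture, and IL11, a driver of platelet formation and fibrosis, share the chain IL6ST with IL6. LIF was among the brightest genes of the table, at percentile 95.4, and lay between 10.20 and 10.44 on all 6 arrays. The groups overlapped, and the mean difference of the hairpins was 0.08 (SE 0.0828; adjusted p = 0.593 by limma). IL11 was 7.89 and 8.11 with Scr, 7.92 and 8.07 with hairpin 44 and 8.33 and 8.20 with hairpin 45. Its arrays of hairpin 45 lay above the others, with a difference of 0.26 from Scr (SE 0.11, limma adjusted p = 0.158), which did not pass. Hairpin 45 and Scr arrays lay apart, in either direction, for 58.9% of all genes.

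IL1A and IL1B, the alarm cytokines of the interleukin-1 receptor, were dim, at the percentiles 22.7 and 12.5 of all genes. IL1A was 5.61 and 5.56 with Scr, 5.39 and 5.68 with hairpin 44, and 5.03 and 5.40 with hairpin 45, a difference of -0.36 for hairpin 45 (interval -0.74 to 0.01, adjusted p = 0.162 by limma). IL1B was 4.66 and 4.59 with Scr and 4.86 on both hairpin 44 arrays. That difference of 0.24 (SE 0.0723, unadjusted p = 0.0163) gave an adjusted p of 0.108 in limma, and hairpin 45, at 4.65 and 4.63, overlapped Scr. IL32, an inducer of other cytokines, lay between 8.84 and 8.93 on all 6 arrays, with a mean difference of 0.03 (SE 0.0631, adjusted p = 0.767).

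CSF1, the growth factor of macrophages, was among the brightest genes, at the percentile 94.3. Its signal was 10.29 and 10.27 with Scr, 10.32 and 10.23 under hairpin 44, and 9.81 and 9.88 under hairpin 45. CSF1 was among the 58.9% of all genes whose hairpin 45 and Scr arrays did not overlap, and its hairpin 45 arrays lay below the other 4. It fell by 0.44 with hairpin 45 (SE 0.0765, interval -0.62 to -0.25; limma, adjusted p = 0.0139), that is, 1.35-fold. With hairpin 44 the difference was -0.0044 (interval -0.19 to 0.18), and over both hairpins it was -0.22 (adjusted p = 0.073 by limma). Without either hairpin 45 array the call was lost (adjusted p = 0.0905 and 0.0703).

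PTX3 went the other way from IL6 in the ZHX2 table, though it did not pass. Its signal on the Scr arrays was 7.37 and 7.09. On those of hairpin 44 it was 7.47 and 7.44, and on those of hairpin 45 it was 7.69 and 7.54. Every hairpin array lay above both Scr arrays, a separation found in either direction for 38.3% of all genes. The difference over both hairpins was 0.30 (SE 0.0996, interval 0.06 to 0.55; limma, adjusted p = 0.0923). With the trend it passed (adjusted p = 0.036), as it did without Scr replicate 1 (0.44, limma adjusted p = 0.044).

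TNFAIP6 had the largest change of the factors and the largest gap between hairpins. Scr arrays gave 7.84 and 7.81, hairpin 44 arrays 7.96 and 7.91, and hairpin 45 arrays 6.20 and 6.0. The hairpin 45 arrays lay far below the other 4, in a table where 58.9% of all genes separated hairpin 45 from Scr. TNFAIP6 fell by 1.72 with hairpin 45 (SE 0.092, interval -1.95 to -1.50; limma, adjusted p = 0.000817), which is 3.30-fold. With hairpin 44 it was 0.11 higher (interval -0.11 to 0.34, adjusted p = 0.516), so the call over both hairpins (-0.81, SE 0.0797, adjusted p = 0.00335) stood on hairpin 45.

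Tested directly, hairpin 45 differed from hairpin 44 for 1 of the 9 factors, TNFAIP6, against 0.397% of all genes. TNFAIP6 was lower with hairpin 45 by 1.84 on the log2 scale (that is, -1.84; SE 0.092; limma, adjusted p = 0.00646), 3.58-fold. Fitted on these 2 groups alone its adjusted p was 0.0562, and without 1 array at a time it ran from 0.0432 to 0.118 in limma, with changes from -1.94 to -1.74; only without hairpin 45 replicate 1 was the call kept. CSF1 (-0.43, adjusted p = 0.11) and IL6 (-0.41, adjusted p = 0.216) were lower with hairpin 45 and did not pass, but CSF1 passed with the trend (adjusted p = 0.000918) and without dim probe sets (limma, 0.0361). ZHX2 itself was 9.35 and 9.38 with hairpin 44 and 8.93 and 9.02 with hairpin 45.

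**Figure D2:**
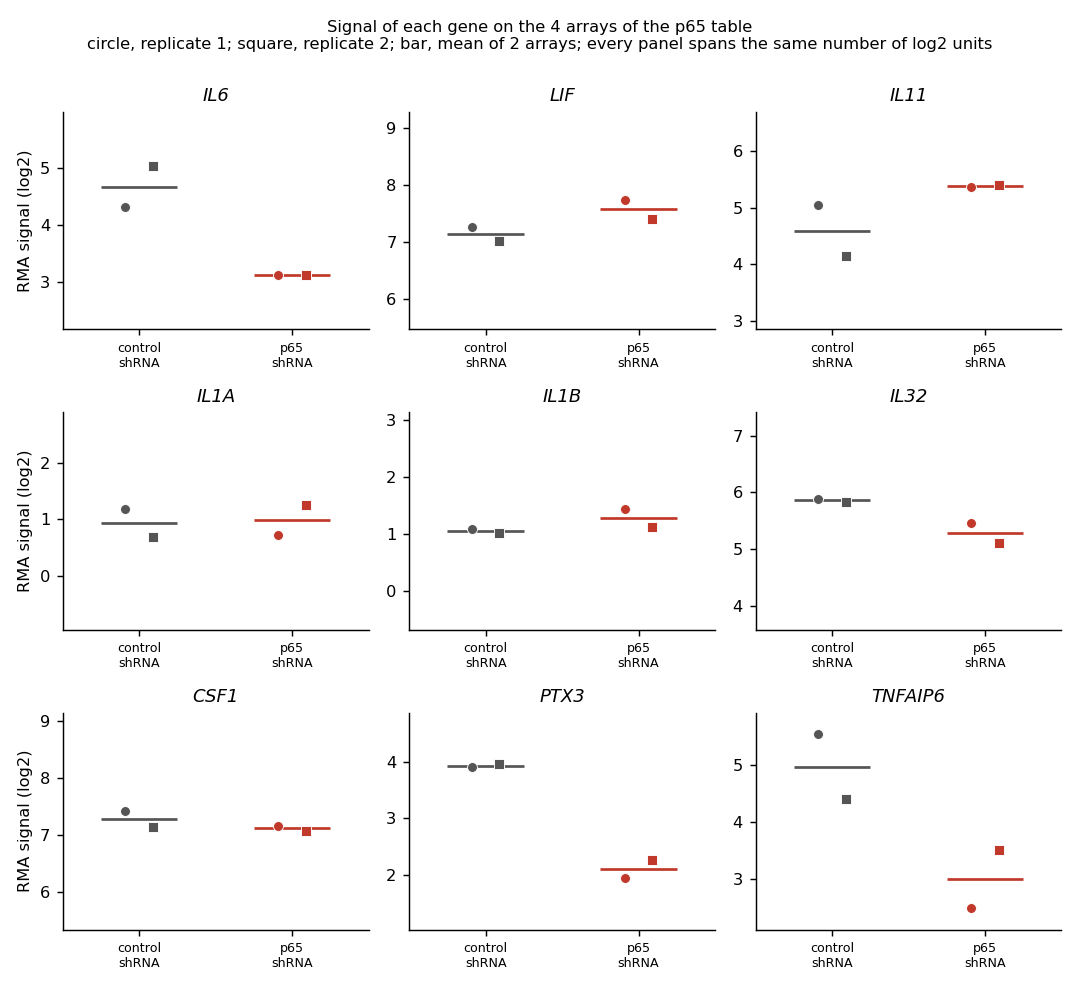
RMA signal (log2, vertical axis) of the same 9 genes on the 4 arrays of the p65 table, with a point for each array and a bar for the mean of 2 arrays. The p65 shRNA arrays of PTX3, at 1.95 and 2.27, lie below the Ctrl arrays, at 3.91 and 3.95.

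With the p65 shRNA, TNFAIP6, PTX3 and IL6 had the largest differences of the 9 factors, all lower, and IL11 and LIF were higher without passing on all 4 arrays. The limma test without a trend called 0 of the 9 and 0.0% of all genes, RELA included (-2.50, SE 0.178, adjusted p = 0.0732), in a design with 2 residual degrees of freedom. At an unadjusted p under 0.05 it was 4 of 9, all lower (IL6, IL32, PTX3 and TNFAIP6), against 14.3% of all genes in either direction and 7.95% lower. With an intensity trend, limma called 2 of the 9, both lower (IL6 and PTX3), against 3.86% of all genes in either direction and 2.49% lower. Without p65 shRNA replicate 1 or replicate 2 that trend fit called 0 of the 9, and its calls over all 22426 genes dropped from 866 to 11 and 185. Without Ctrl replicate 1 it called 3 of the 9 (IL6, PTX3 and IL11, the last with a difference of 1.23 and a limma adjusted p of 0.0213) among 1039 genes, and without Ctrl replicate 2 it called 2 (PTX3 and TNFAIP6) among 1005.

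PTX3 was 3.91 and 3.95 with Ctrl and 1.95 and 2.27 with the p65 shRNA. The groups, of 2 arrays each, lay far apart next to their own spread. In this table groups did not overlap for 7 of the 9 factors and 46% of all genes. Both p65 shRNA values of PTX3 lay below the median gene of the table, at 2.83. The difference was -1.82 (SE 0.191, interval -2.30 to -1.34), which is 3.53-fold (adjusted p = 0.0732 by limma, 0.0152 with the trend). For IL6 the Ctrl arrays gave 4.31 and 5.03 and both p65 shRNA arrays 3.12, below either. Its difference was -1.55 (SE 0.273, interval -2.24 to -0.87), 2.93-fold, with an adjusted p of 0.116 in limma and 0.0312 with the trend.

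TNFAIP6 was 5.55 and 4.41 with Ctrl and 2.49 and 3.51 with the p65 shRNA. The groups did not overlap, like those of 46% of all genes, but the arrays within each lay about 1 unit apart. The lower p65 shRNA array lay below the median gene of the table, at 2.83. The difference was -1.98 (SE 0.492, interval -3.22 to -0.74; limma, adjusted p = 0.191, and 0.0566 with the trend). IL32 was 5.89 and 5.83 with Ctrl and 5.46 and 5.11 with the p65 shRNA, a difference of -0.57 (SE 0.195, adjusted p = 0.29).

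IL11 was 5.04 and 4.14 with Ctrl and 5.36 and 5.39 with the p65 shRNA, and LIF 7.26 and 7.01 against 7.74 and 7.41. Their differences, 0.78 (interval -0.02 to 1.59) and 0.44 (interval -0.08 to 0.96), did not pass in limma (adjusted p = 0.359 and 0.417). CSF1 differed by -0.17 (adjusted p = 0.738). IL1A and IL1B lay at the percentiles 8.53 and 14.9 of all genes in this table, and differed by 0.06 and 0.23.

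**Figure D3:**
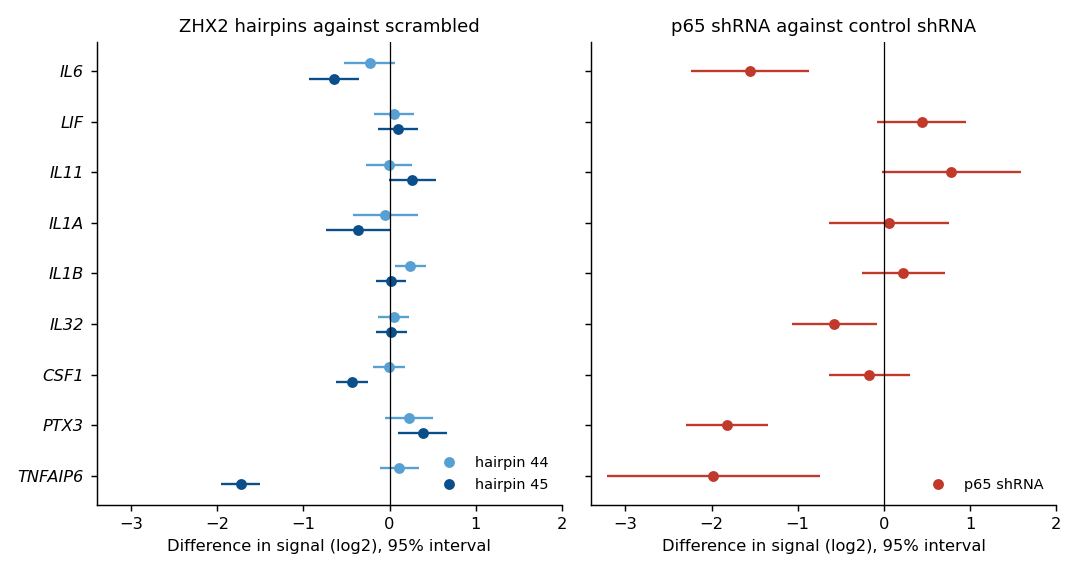
Difference in signal (log2, horizontal axis) of each gene with its 95% interval, for both ZHX2 hairpins against Scr on the left and for p65 shRNA against Ctrl on the right. TNFAIP6 is at -1.72 with hairpin 45 and 0.11 with hairpin 44, and PTX3 is at 0.38 with hairpin 45 and -1.82 with the p65 shRNA.

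Set side by side, the sign over both ZHX2 hairpins matched that with the p65 shRNA for 6 of the 9 factors. The share of all genes with matching signs was not computed, so this count is not read as agreement. LIF, IL11 and IL1B are among the 6 without a call in the main fit of either table. IL6 was lower in both (-0.44 and -1.55). TNFAIP6 is among the 6 through hairpin 45 only: its -0.81 over both hairpins is the mean of 0.11 and -1.72, beside -1.98 with the p65 shRNA. PTX3 was 0.30 higher with the ZHX2 hairpins and 1.82 lower on the log2 scale with the p65 shRNA (-1.82). CSF1, called with hairpin 45 at -0.44, was -0.17 with the p65 shRNA. The arrays of the 2 tables share no controls, and the tables were taken as normalized separately. Whether the changes differ between the knockdowns was therefore not tested. RELA rose by 0.44 over both ZHX2 hairpins (limma, adjusted p = 0.0112), a call lost without Scr replicate 2 (0.0554).

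Of 12 measured receptors and signalling chains of the factors, 1 fell and 2 rose over both ZHX2 hairpins, a share near the 18.3% of all genes called in either direction. IL1R1, the receptor of IL1A and IL1B, fell by 1.22 (SE 0.101; limma, adjusted p = 0.00231). LIFR rose by 0.40 (adjusted p = 0.0119), a call lost without Scr replicate 2 (0.0575), and so did IL6ST, by 0.33 (adjusted p = 0.0215), a call lost without any 1 of the 6 arrays. IL6ST, IL6R and OSMR were singled out after their values were seen. With the p65 shRNA and the trend, limma called OSMR (-1.13, adjusted p = 0.01) and IL6R (1.73, adjusted p = 0.0434). IL6R was 3.70 and 3.42 with Ctrl and 5.87 and 4.71 with the p65 shRNA, and its call was lost without Ctrl replicate 2 or p65 shRNA replicate 1; that of OSMR was lost without either p65 shRNA array.

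Of 12 measured further ligands of the IL-6 and IL-1 families, 0 passed over both hairpins in limma, with EBI3 at -0.26 (adjusted p = 0.0824) and IL18, which caspase-1 activates, at -0.49 (adjusted p = 0.0828; 0.0338 with the trend, the 1 ligand of the list called by that fit). Of 14 genes of interleukin-1 processing, 1 rose (18.3% of all genes passed): NLRP3, an inflammasome sensor, by 0.46 (adjusted p = 0.013), a call lost without Scr replicate 2 (0.0554). CASP4 was at -0.31 (adjusted p = 0.0513).

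Among the 18 measured genes of JAK-STAT3 signalling and its targets, 5 fell and 1 rose over both hairpins, against 6.41% of all genes lower and 18.3% in either direction. MYC rose by 0.86 (SE 0.0668; limma, adjusted p = 0.0021), and was 1.07 higher with the p65 shRNA, which passed with the trend (adjusted p = 0.00626) but not without either p65 shRNA array. BCL3, an atypical inhibitor of NF-kappaB, fell by 0.73 (SE 0.0633, adjusted p = 0.00255). CEBPD, JUNB, JAK1 and BCL6, named after their values were seen, were the other 4 that fell.

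Of 22 transcription factors known to act on the IL6 promoter, 4 fell and 4 rose (18.3% of all genes passed). NFKBIZ, a nuclear cofactor that NF-kappaB needs at the IL6 gene, fell by 1.34 (SE 0.0702; limma, adjusted p = 0.000939). Its change under hairpin 44 was -0.63 and under hairpin 45 -2.05, and the direct test of the hairpins gave -1.43 (adjusted p = 0.00811 by limma, and 0.0562 to 0.14 without 1 array at a time, so the call was lost each time); with the p65 shRNA it was 0.47 (adjusted p = 0.345). FOSL1, an AP-1 subunit, rose by 1.06 (SE 0.0635, adjusted p = 0.00121). The others that fell were CEBPD, JUNB and JUND, and those that rose were CEBPG, JUN and RELA, named after their values were seen.

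Of 14 measured regulators of the decay of AU-rich cytokine mRNA, 3 fell and 4 rose, again beside 18.3% of all genes. ZFP36, which binds such mRNA and speeds its decay, fell by 0.49 (SE 0.0657; limma, adjusted p = 0.00701), and AGO2 rose by 0.46 (SE 0.063, adjusted p = 0.00782). Of 12 measured genes around hyaluronan, to which TNFAIP6 binds, 3 fell and 4 rose, beside the same 18.3%. CD44, the hyaluronan receptor, rose by 0.84 (SE 0.0608, adjusted p = 0.00186). With the p65 shRNA CD44 was -1.14, called with the trend (adjusted p = 0.0093) but not without either p65 shRNA array, and -0.56 when its probe sets were averaged. HAS2, a hyaluronan synthase, rose by 0.82 (SE 0.0675, adjusted p = 0.00229), with 0.40 for hairpin 44 and 1.23 for hairpin 45.

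Of 6 measured pentraxin genes, PTX3 among them, 0 passed in limma without the trend, and with it NPTXR was called lower (adjusted p = 0.0414) and PTX3 higher; NPTXR was at -0.32 (adjusted p = 0.0937 without the trend) and NPTX1 at -0.19 (adjusted p = 0.153). Of 39 other secreted cytokines, 3 fell and 1 rose over both hairpins, a smaller share than the 18.3% of all genes. TNFSF10, the death ligand TRAIL, fell by 0.71 (SE 0.0714; limma, adjusted p = 0.0035), and was -0.81 with the p65 shRNA (adjusted p = 0.00775 with the trend, a call lost without either p65 shRNA array). TGFB1 fell by 0.53 (SE 0.0706, adjusted p = 0.00691).

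**Figure D4:**
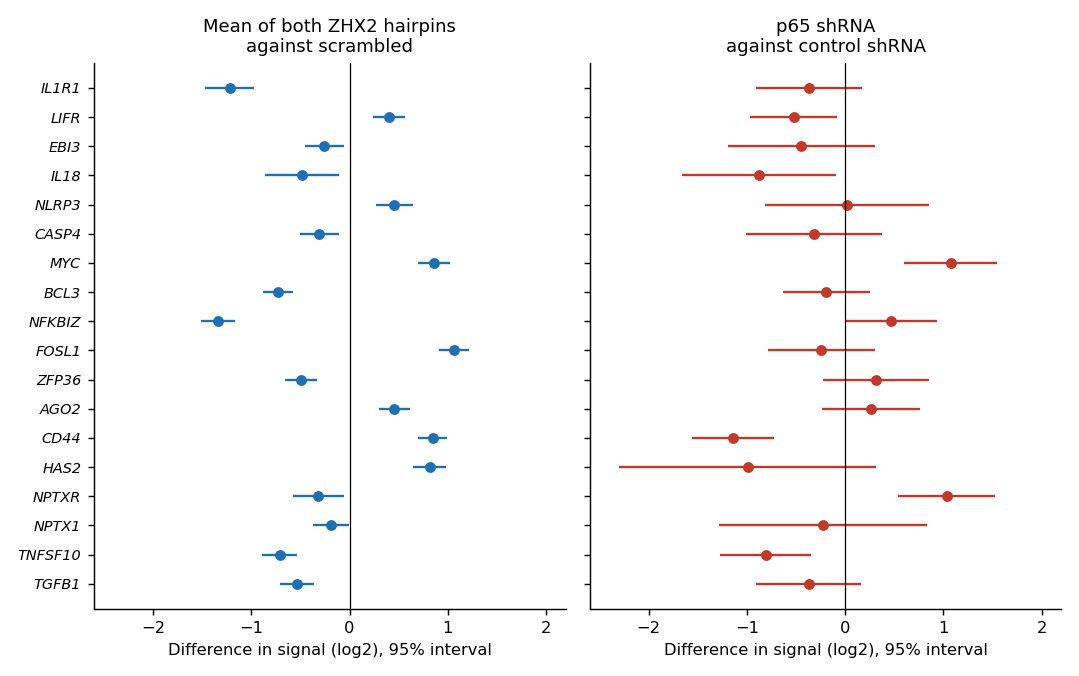
Difference in signal (log2, horizontal axis) with its 95% interval for the first-named genes of each list, for the mean of both ZHX2 hairpins against Scr and for p65 shRNA against Ctrl. NFKBIZ lies at -1.34 and IL1R1 at -1.22 over both hairpins, and FOSL1 at 1.06.

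The medians of these 9 lists over both hairpins lay between -0.12 and 0.04, against -0.0042 for all genes, and with the p65 shRNA between -0.29 and 0.08. The lists share some genes, such as CEBPD and JUNB.

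Genes of most like pattern were sought for the 2 factors called over both hairpins, as the smallest Euclidean distance over the 6 arrays. For IL6 they were ALPK2, HEPHL1 and RPEL1, at distances of 0.116 to 0.164. ALPK2 was -0.21 with hairpin 44, -0.65 with hairpin 45 and 0.91 with the p65 shRNA, where IL6 was -1.55. For TNFAIP6 they were DCDC2, EDN1 and SEMA6A, at distances of 0.606 to 0.742. EDN1, the vasoconstrictor endothelin-1, was -0.04 with hairpin 44, -1.29 with hairpin 45 and -1.23 with the p65 shRNA, while DCDC2 was 0.05, -1.32 and 1.08. With the p65 shRNA none of these nearest genes passed in limma without the trend. With the trend, limma called ALPK2 (adjusted p = 0.0104), DCDC2 (0.0175) and SEMA6A (-0.79, adjusted p = 0.0445). EDN1 (0.0807), HEPHL1 and RPEL1 did not pass it.

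The mean of the 8 renal markers was 10.20 to 10.29 with Scr, 10.12 with hairpin 44 and 9.90 to 9.95 with hairpin 45, and 7.17 to 7.21 with Ctrl against 6.75 to 6.99 with the p65 shRNA. Over both ZHX2 hairpins 3 of the 8 fell (CDH6 by 1.92, PAX8 by 0.38 and PAX2 by 0.36) and 1 rose (KRT18, by 0.62) in limma. Of all genes 6.41% were called lower and 18.3% in either direction. The call of PAX2 was lost without any 1 of the 6 arrays, and that of KRT18 without Scr replicate 2 or hairpin 44 replicate 1. The mean of 10 macrophage markers was 5.73 with Scr, 5.69 to 5.70 with hairpin 44 and 5.65 to 5.71 with hairpin 45, and TYROBP fell by 0.32 with hairpin 45 (limma, adjusted p = 0.0362), a call lost without any 1 of the 6 arrays. Of 6 measured fibroblast markers, 1 lay above the median gene in the ZHX2 table and 3 in the p65 table, where LUM reached percentile 76.2. Their mean in the ZHX2 table was 5.92 to 5.95 with Scr and 5.66 to 5.74 over the hairpin arrays, and LUM fell by 0.95 over both hairpins (adjusted p = 0.00316). In the p65 table the fibroblast mean was 2.72 to 3.04 with Ctrl and 2.89 to 2.93 with the p65 shRNA. The part of these markers in the changes of the secreted factors was not tested.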

How the data were processed

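Per the submitters' processing notes, the authors deposited RMA signals, which lie on the log2 scale; for the software, its version and the build, the sources used here give nothing. Each table holds 53617 probe sets. Of these 24471 were named through the platform annotation, with 600 symbols updated, and the probe set of highest mean was used per gene. limma 3.58.1 (R 4.3.3) was fitted to each table alone, without an intensity trend, and p-values were adjusted (Benjamini-Hochberg) over 22426 genes, with calls at 0.05. In the ZHX2 table there were 3 residual degrees of freedom and 2 in the p65 table. Tested on simulated data with 200 changed genes, the ZHX2 fit called 42 of 50 genes changed by 1 on the log2 scale, and the p65 fit called 0 of 50 (26 of 50 at 2). In the simulation both hairpins shifted a gene alike, and spread did not depend on signal. Fewer genes changed than the 4102 called over both hairpins here. These counts are therefore not the power of the tests reported. The members and lists were chosen with earlier results of these data known. Beside the targeted genes and all members, the text names the 2 genes of smallest p in each list for both ZHX2 hairpins, and the 3 nearest in pattern to each called member. Alternatives were another probe rule, a trend, normalizations, a filter on dim probe sets, a replicate block and leaving out arrays. Arrays of a group differed by an SD of 0.197 to 0.239 over genes in the ZHX2 table and 0.40 to 0.427 in the p65 table, so no array was a copy of another. The number of arrays limits the precision.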

Additional observations from a re-analysis of the deposited data

Results flagged for a closer look

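TNFAIP6 differed between the hairpins against ZHX2, by a test of the difference itself: -1.84 on the log2 scale for hairpin 45 minus hairpin 44 (SE 0.092; limma, adjusted p = 0.00646). It was 6.20 and 6.0 on the hairpin 45 arrays and 7.96 and 7.91 on those of hairpin 44. Both hairpins were set against the same Scr arrays, at 7.84 and 7.81. The call was lost when only the groups of hairpin 44 and hairpin 45 were fitted. Leaving out any 1 array other than hairpin 45 replicate 1 also ended it.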

How the results depend on the processing

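Of the 9 factors, the number called over both hairpins was 2 (4102 of all 22426 genes), and it was 4 with the trend (5874 genes). Without dim probe sets 7 of the factors and 16424 genes were tested, and 4 and 5260 of them were called. The number of factors called also changed without 1 array at a time. For hairpin 45 it was 3 (4514 genes), and this too changed without 1 array. Between the hairpins it was 1 (89 genes), a call that leaving out 1 array could end. It was 2 with the trend (1468 genes), 2 of 7 without dim probe sets (404 genes), and 0 when only these groups were fitted (3 genes). For p65 it was 0, and 2 with the trend; with the trend and 1 array left out, chosen after seeing the data, it was 0 to 3, being 3 without Ctrl replicate 1 and 2 without Ctrl replicate 2. With 1 array left in a group, that array is assumed to vary like the other groups. With hairpin 44 it was 0 in every setting tried. Same-numbered arrays did not deviate together (correlations -0.0262, 0.0547 and 0.0267 in the ZHX2 table and 0.00953 in the p65 table). With 2 arrays a group this does not exclude a pairing, and the main fits used none. With the replicate block 1 factor, TNFAIP6, was called over both hairpins (3392 of all genes), and IL6 was not (limma, adjusted p = 0.06). For p65, with the block and the trend, 3 factors were called (1434 of all genes). Small differences changed sign. A further quantile normalization gave LIF -0.045 over both hairpins, -0.043 for hairpin 44, -0.047 for hairpin 45 and -0.0041 between them, and IL32 -0.064, -0.030 and -0.098; median centring gave IL11 0.026 and CSF1 0.027 for hairpin 44. Without 1 array at a time, changes for hairpin 44 ran from -0.0075 to 0.11 (LIF), -0.11 to 0.10 (IL11), -0.19 to 0.094 (IL1A) and -0.049 to 0.040 (CSF1); for hairpin 45 from -0.016 to 0.055 (IL1B) and -0.0038 to 0.043 (IL32); between hairpins from -0.040 to 0.13 (LIF); and for p65 from -0.21 to 0.32 (IL1A, -0.19 without Ctrl replicate 2). The causes were not tested. Dim signals limit IL1A and IL1B, and PTX3 lay below the median gene with the p65 shRNA.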

Other observations

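GDF15, a stress cytokine of the TGF-beta family, was singled out after its values were seen. It was 9.73 and 9.58 with Scr, 10.19 and 10.01 with hairpin 44, and 9.09 and 8.94 with hairpin 45, so the hairpins lay on opposite sides of the control. Hairpin 45 minus hairpin 44 was -1.09 (SE 0.105; limma, adjusted p = 0.0293), a call lost without any 1 of the 6 arrays (0.0781 to 0.237). In the p65 table GDF15 was 5.78 and 6.07 with Ctrl and 9.19 and 8.48 with the p65 shRNA, a difference of 2.91 (SE 0.286). It did not pass in limma without a trend (adjusted p = 0.0732); with the trend it passed (0.00237), also without each of the 4 arrays in turn.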
